A study of Sus scrofa with 6 samples.

Results

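The enzymes that carry sugar to pyruvate and lactate, store and release glycogen, feed pyruvate into the TCA cycle, run that cycle, and buffer ATP through creatine and adenine nucleotides were described in porcine satellite cells (PSCs). The list held 57 genes, chosen by symbol as enzymes of these pathways, with earlier results of these data known. A row of the table carried the symbol of 51 of them, and 48 passed a minimum of 1 FPKM on average across the 6 libraries, out of 14060 genes that passed it in all. ALDOA, LDHB, PGM1, CS, IDH3A and CKM were not analysed here, because no row could be paired with their symbols. The study looked at how PSCs differentiate, and this table holds cells that were given a negative control siRNA (NC), 3 libraries from 24 h of differentiation (NC24h, replicates 4, 5 and 6) and 3 from the later time (NC36h, replicates 4, 5 and 6). The series title puts the later time at 36 h and the sample labels at 48 h, and it is called 36 h here. PSCs are the stem cells of skeletal muscle. Per the study's methods they came from the limb muscle of 3-day-old male Yorkshire pigs, received the siRNA in growth medium and were then moved to differentiation medium with 5% horse serum. The labels do not state the siRNA, and the NC assignment follows the letter N of the library titles and the study's text. On that reading, the NC siRNA was common to both groups. The label that names the extraction gives endometrium as the source, against a tissue label of skeletal muscle.

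Glycolysis breaks glucose down to pyruvate in the cytosol, and lactate dehydrogenase turns pyruvate to lactate when it is not burnt in mitochondria. Mature muscle stores glucose as glycogen, which glycogen phosphorylase releases during contraction, and keeps a reserve of high-energy phosphate as phosphocreatine. Several of these steps are catalysed by isozymes from separate genes, and muscle is known for its own forms of phosphofructokinase, phosphoglycerate mutase, enolase, glycogen phosphorylase, creatine kinase and AMP deaminase.

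FPKM counts fragments relative to gene length and to the mapped fragments of the library, so that levels can be compared between genes. The fragments recovered from the FPKM values, over genes above 0 in at least 3 libraries, numbered between 16250222 and 21723087 per library. These are not the full library sizes. A tested member had at least 662 recovered fragments over the 6 libraries. The differences below are on the log2(FPKM + 1) scale, 36 h minus 24 h, with adjusted p from limma over all genes tested, and fold values are ratios of mean FPKM. Nothing says that the libraries came from separate animals or cultures, so the p-values measure the spread between these libraries only. NC24h replicate 6 stood apart from the other 24 h libraries in muscle genes. ACTA1, skeletal muscle actin, was at 1853, 1425 and 467 FPKM at 24 h and 5885, 5819 and 5012 FPKM at 36 h. MYOD1, which marks myogenic cells, was between 246 and 386 FPKM in the 6 libraries, and PGR, the progesterone receptor of endometrium, was listed at 0 in each. PAX7, the usual satellite cell marker, was not analysed here. In bulk RNA, a change in the number of cells of a type and a change in RNA per cell cannot be told apart.

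Of the 48 enzymes tested, 18 rose and 11 fell between 24 h and 36 h, and 19 did not pass the threshold. The share that rose was 37.5%, against 16.5% of all genes tested, and the share that fell was 22.9%, against 34.4% of all genes tested. The list was drawn up with earlier results of these data known, so these shares describe it and are not a test. For the 49 other tested genes of the same pathways they were 24.5% and 34.7%. The median difference of the members was 0.11 on the log2 scale, where the median of all genes tested was -0.16. AMPD1 passed the filter only through its 36 h level, so that 17 of the rises are in genes above 1 FPKM at both times. After median-ratio scaling, which moved the median of all genes to -0.0058, 24 of the 48 members rose and 6 of the 48 fell. Of all genes tested, 23.9% rose and 22.3% fell after that scaling. All 18 members that rose kept their call there, and PFKM, PGAM1, ENO1, PHKA1 and DLD lost theirs. Counted without a test, the 3 values at 36 h lay wholly above those at 24 h for 21 of the 48 members and wholly below for 12 of the 48. Of all genes tested, 21.0% lay wholly above and 42.6% wholly below. The 11 falls became 7 without NC24h replicate 5, 6 without NC36h replicate 5 and 7 without NC36h replicate 6, and without NC24h replicate 6 the counts were 21 higher and 11 lower. The summed level of the 51 members with a row was 7812 ± 682 FPKM at 24 h and 9272 ± 384 FPKM at 36 h (SD, n = 3), or 1.34 ± 0.110% and 1.57 ± 0.071% of the FPKM sum.

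**Figure D1:**
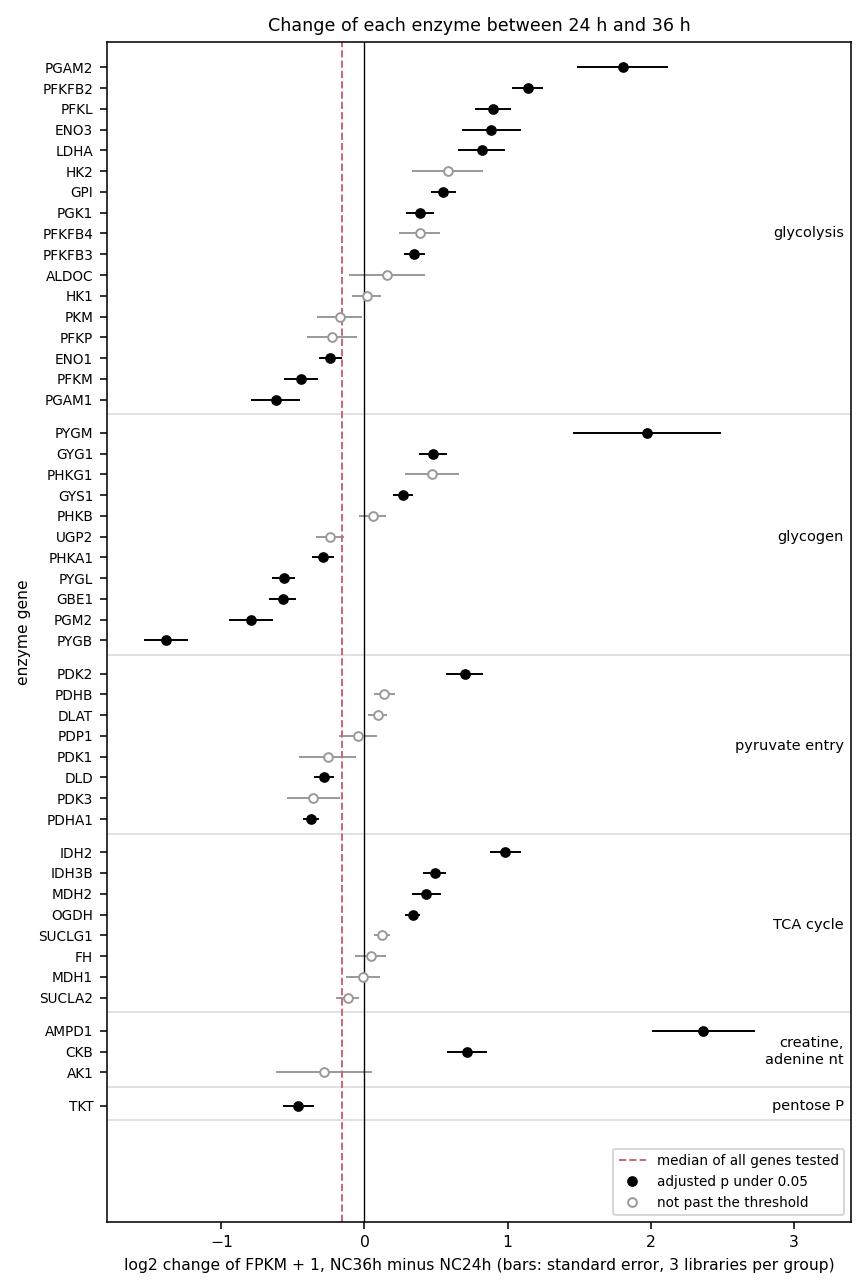
Difference of each tested enzyme between NC36h and NC24h on the log2(FPKM + 1) scale, grouped by pathway, with the standard error as a bar (3 libraries per group). Filled points passed the limma threshold; 18 lie to the right of 0 and 11 to the left, and the dashed line is the median of all genes tested (-0.16).

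Glycolysis held 17 tested enzymes, of which 8 rose (47.1%, against 16.5% of all genes), 3 fell (17.6%, against 34.4%) and 6 did not pass. Their median difference was 0.39 on the log2 scale, or 0.54 above the median of all genes. The summed FPKM of the 18 members with a row was 6082 ± 743 FPKM at 24 h and 7275 ± 237 FPKM at 36 h. The rises were at the isomerase and phosphofructokinase steps and its regulators, at phosphoglycerate kinase, at lactate dehydrogenase and at the muscle forms of mutase and enolase, while the broadly expressed mutase and enolase and the muscle form of phosphofructokinase fell. These 3 falls did not pass after median-ratio scaling, where 10 of the 17 were higher and the other 7 did not pass. Of all genes, 23.9% were higher there.

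Hexokinase traps glucose in the cell by phosphorylation. HK1 was at 174, 194 and 222 FPKM at 24 h and 187, 196 and 213 FPKM at 36 h, with the groups overlapping (log2 change 0.016 ± 0.10 (SE), adjusted p = 0.904). HK2, the insulin-responsive form of muscle, was much lower, at 13.1, 17.2 and 27.1 FPKM at 24 h and 24.0, 28.0 and 32.4 FPKM at 36 h. The highest 24 h library, replicate 6, lay above the lowest 36 h library (log2 change 0.58 ± 0.25 (SE), adjusted p = 0.0884). HK2 passed without NC24h replicate 6 (0.85, limma adjusted p = 0.00532), after median-ratio scaling (0.75, adjusted p = 0.0383) and with the replicate number as a block (limma adjusted p = 0.0162), and its adjusted p ran from 0.00532 to 0.22 over its 14 alternatives. Without NC24h replicate 4 the difference was 0.36 (limma adjusted p = 0.202). GPI, which turns glucose phosphate into fructose phosphate, stood at 393, 436 and 466 FPKM at 24 h and 664, 637 and 591 FPKM at 36 h. All 3 values at 36 h lay above those at 24 h, a 1.46-fold rise (log2 change 0.55 ± 0.087 (SE), adjusted p = 0.0032).

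Phosphofructokinase commits sugar to glycolysis. PFKL, the form named for liver, was the most abundant of its 3 genes, at 73.0, 77.3 and 96.8 FPKM at 24 h and 138, 153 and 169 FPKM at 36 h. It rose 1.87-fold with no overlap between the groups (log2 change 0.90 ± 0.12 (SE), adjusted p = 0.00215). PFKM, the form named for muscle, was at 21.0, 22.1 and 27.4 FPKM at 24 h and 18.7, 16.9 and 15.2 FPKM at 36 h, and every library at 36 h was below every library at 24 h (log2 change -0.45 ± 0.12 (SE), adjusted p = 0.0204). Its call was lost after median-ratio scaling (-0.28, adjusted p = 0.0739) and without NC36h replicate 5 (limma adjusted p = 0.0643) or 6 (limma adjusted p = 0.0634), and its adjusted p ran from 0.017 to 0.0739 over its 14 alternatives. PFKP, the platelet form, was at 32.1, 38.8 and 53.4 FPKM at 24 h and 32.9, 36.3 and 34.5 FPKM at 36 h, and did not pass (log2 change -0.23 ± 0.17 (SE), adjusted p = 0.303).

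The PFKFB genes encode bifunctional enzymes that make and remove the activator of phosphofructokinase. PFKFB2 was at 10.6, 11.2 and 9.02 FPKM at 24 h and 26.7, 23.4 and 21.5 FPKM at 36 h. The 36 h values lay wholly above the 24 h ones, a 2.32-fold rise and, on the log2 scale, the second largest of the glycolytic genes (log2 change 1.14 ± 0.11 (SE), adjusted p = 0.000949). PFKFB3 stood at 27.6, 31.0 and 30.8 FPKM at 24 h and 36.1, 39.3 and 39.2 FPKM at 36 h, higher in all 3 libraries at 36 h (log2 change 0.35 ± 0.072 (SE), adjusted p = 0.00766). PFKFB4 was the lowest of these genes, at 5.25, 5.87 and 6.75 FPKM at 24 h and 9.59, 8.24 and 6.57 FPKM at 36 h. NC36h replicate 6 lay among the 24 h values and PFKFB4 did not pass (log2 change 0.39 ± 0.14 (SE), adjusted p = 0.0623), but it did without that library (limma adjusted p = 0.0258), without NC24h replicate 6 (limma adjusted p = 0.0388) and after median-ratio scaling (0.54, adjusted p = 0.0186), and its adjusted p ran from 0.0135 to 0.174 over its 14 alternatives.

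Aldolase splits the 6-carbon sugar in 2. ALDOC, the form of nervous tissue, was at 12.3, 17.3 and 28.5 FPKM at 24 h and 21.5, 21.3 and 18.8 FPKM at 36 h and differed most among the 24 h libraries (log2 change 0.16 ± 0.27 (SE), adjusted p = 0.642). It passed only without NC24h replicate 6 (0.47, limma adjusted p = 0.0348), and its adjusted p ran from 0.0348 to 0.784 over its 14 alternatives. TPI1, the triose phosphate isomerase of the next step, was listed at 0 in all 6 libraries although its neighbours in the pathway were measured in every library, so no level is read from it. PGK1, which makes the first ATP of the pathway, was at 325, 348 and 413 FPKM at 24 h and 489.7, 463 and 462 FPKM at 36 h. All the 36 h values were higher, by 1.3-fold (log2 change 0.39 ± 0.098 (SE), adjusted p = 0.0165), but the call was lost without NC24h replicate 5 (limma adjusted p = 0.0616) and without NC36h replicate 4 (limma adjusted p = 0.054) or 5 (limma adjusted p = 0.0523). The adjusted p of PGK1 ran from 0.00167 to 0.0616 over its 14 alternatives.

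Phosphoglycerate mutase held the glycolytic gene with the largest difference. PGAM2, the muscle form (Sscrofa11.1, ENSSSCG00000016720, chromosome 18, 48693832 to 48712787), was at 444, 354 and 177 FPKM at 24 h and 1099.8, 1145 and 949 FPKM at 36 h. NC24h replicate 6 was the lowest library, and even the highest at 24 h was far below the lowest at 36 h. The rise was 3.27-fold (log2 change 1.80 ± 0.32 (SE), adjusted p = 0.00447) and 1.42 on the log2 scale without NC24h replicate 6. PGAM1, the broadly expressed form, was at 583, 662 and 857 FPKM at 24 h and 381, 452 and 527 FPKM at 36 h. Here NC24h replicate 6 was the highest, and the groups did not overlap (log2 change -0.62 ± 0.17 (SE), adjusted p = 0.0229). The fall of PGAM1 was lost after median-ratio scaling (-0.45, adjusted p = 0.0637), without NC24h replicate 5 (limma adjusted p = 0.0543) and without NC36h replicate 4 (limma adjusted p = 0.0707) or 5 (limma adjusted p = 0.0677). Its adjusted p ran from 0.00361 to 0.0707 over its 14 alternatives.

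Enolase, the step after the mutase, changed in the same 2 directions. ENO3, its muscle form, was at 243, 222 and 158 FPKM at 24 h and 449, 403 and 298 FPKM at 36 h. Within each time, replicate 6 was the lowest, and the groups stayed apart (1.85-fold, log2 change 0.89 ± 0.20 (SE), adjusted p = 0.0118). ENO1, the broadly expressed form, was at 1110.5, 1159.8 and 1268 FPKM at 24 h and 995, 969 and 1033 FPKM at 36 h, all 3 values lower at 36 h (log2 change -0.24 ± 0.080 (SE), adjusted p = 0.0441). That call held only in 6 of 14 alternatives, its adjusted p going from 0.0312 to 0.507 over its 14 alternatives. It was lost with no filter, after median-ratio scaling (-0.063, adjusted p = 0.507), after quantile normalization, with the replicate block (limma adjusted p = 0.0508), without NC24h replicate 5 (limma adjusted p = 0.11) and without NC36h replicate 4, 5 or 6 (limma adjusted p = 0.0955, 0.149 and 0.075).

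At the end of the pathway, PKM, the pyruvate kinase of muscle and many other tissues, was the most abundant member of all, at 1425, 1619 and 2172 FPKM at 24 h and 1594, 1526 and 1436 FPKM at 36 h. The groups overlapped and PKM did not pass (log2 change -0.17 ± 0.16 (SE), adjusted p = 0.388). LDHA, the lactate dehydrogenase subunit that is dominant in fast muscle, was at 571, 661 and 895 FPKM at 24 h and 1302, 1227 and 1164 FPKM at 36 h. Each library at 36 h was above each at 24 h, by 1.74-fold in the means (log2 change 0.82 ± 0.16 (SE), adjusted p = 0.00687). At 36 h, LDHA was second to PKM in level and PGAM2 next, at 1064 ± 103 FPKM. PGK1, PGAM1, ENO1, PKM and LDHA belong to gene families with near-identical copies elsewhere in mammalian genomes, and how shared reads were counted is not given in the sources used here, so their levels are uncertain to that extent.

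**Figure D2:**
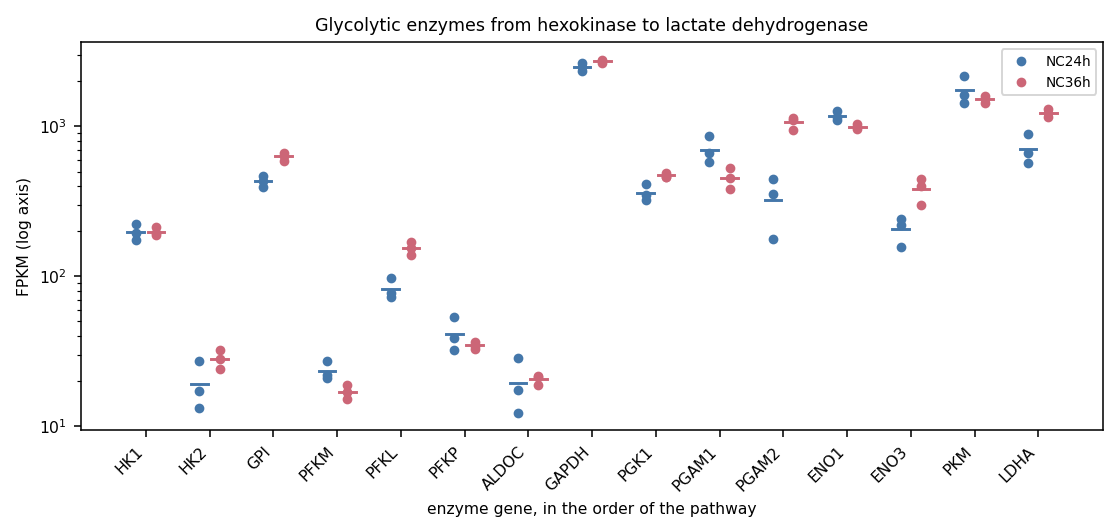
FPKM on a log axis of the glycolytic enzymes in pathway order, with GAPDH, which is not among the 57 genes, as a neighbouring step; each point is a library and each line the mean of 3. PGAM2, ENO3, PFKL and LDHA lie higher at 36 h in every library, and PKM and HK1 overlap between the times.

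Glycogen turnover held 11 tested enzymes, of which 3 rose (27.3%, against 16.5% of all genes), 5 fell (45.5%, against 34.4%) and 3 did not pass. Its median difference was -0.24 on the log2 scale, or -0.083 relative to all genes. The summed level was 472 ± 32.5 FPKM at 24 h and 629 ± 77.6 FPKM at 36 h. PYGM, the muscle glycogen phosphorylase, carried most of that difference.

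Glycogen phosphorylase releases glucose phosphate from the ends of the chains. PYGM (ENSSSCG00000013022, chromosome 2, 7409330 to 7421256) was at 53.3, 43.4 and 15.7 FPKM at 24 h and 206, 149 and 77.4 FPKM at 36 h. The range within each time was wide, with replicate 6 the lowest in both, and the lowest library at 36 h was still above the highest at 24 h. PYGM rose 3.85-fold (log2 change 1.97 ± 0.52 (SE), adjusted p = 0.0185), with a difference of 1.46 on the log2 scale without NC24h replicate 6. The call was lost without NC36h replicate 4 (limma adjusted p = 0.0622) or 5 (limma adjusted p = 0.0619), and its adjusted p ran from 0.0015 to 0.0622 over its 14 alternatives. PYGB, the brain form, was at 9.13, 9.51 and 11.3 FPKM at 24 h and 2.97, 2.61 and 4.12 FPKM at 36 h, and its 3.09-fold fall was the largest of the 48 tested members (log2 change -1.39 ± 0.15 (SE), adjusted p = 0.00119). PYGL, the liver form, was at 34.0, 34.9 and 39.8 FPKM at 24 h and 22.7, 24.4 and 25.3 FPKM at 36 h, also with no overlap (log2 change -0.56 ± 0.082 (SE), adjusted p = 0.00242).

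The enzymes that build glycogen did not move together. GYS1, the glycogen synthase of muscle, was at 214 ± 14.1 FPKM at 24 h and 257 ± 6.36 FPKM at 36 h (SD, n = 3), the most abundant of the 11, and it rose (log2 change 0.27 ± 0.069 (SE), adjusted p = 0.0171). That call was lost when NC36h replicate 5 was left out (limma adjusted p = 0.0706), and its adjusted p ran from 0.00584 to 0.0706 over its 14 alternatives. GYG1, the protein primer of each glycogen particle, rose from 86.9 ± 3.17 to 122 ± 15.8 FPKM (log2 change 0.48 ± 0.098 (SE), adjusted p = 0.00779). The branching enzyme GBE1 fell instead, with 19.2, 18.5 and 22.3 FPKM at 24 h and 13.7, 12.0 and 13.7 FPKM at 36 h (log2 change -0.57 ± 0.094 (SE), adjusted p = 0.00362). PGM2, listed here by its phosphoglucomutase name, was at 6.07, 5.55 and 8.65 FPKM at 24 h and 3.38, 3.30 and 3.58 FPKM at 36 h, every library lower at 36 h (log2 change -0.79 ± 0.15 (SE), adjusted p = 0.00607). Whether PGM2 serves glycogen in these cells was not tested. UGP2, which makes the activated glucose that the synthase adds, was at 18.8 ± 1.99 FPKM at 24 h and 15.7 ± 1.40 FPKM at 36 h and did not pass (log2 change -0.24 ± 0.10 (SE), adjusted p = 0.0827), though its groups did not overlap.

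Phosphorylase kinase switches phosphorylase on. Its regulatory subunit PHKA1 went from 6.03 ± 0.117 to 4.75 ± 0.164 FPKM (log2 change -0.29 ± 0.075 (SE), adjusted p = 0.018). The call was lost after median-ratio scaling (-0.14, adjusted p = 0.151) and quantile normalization (limma adjusted p = 0.361), without NC24h replicate 5 (limma adjusted p = 0.0503) and without NC36h replicate 5 (limma adjusted p = 0.07) or 6 (limma adjusted p = 0.0532), and adjusted p ran from 0.00555 to 0.361 over its 14 alternatives. The beta subunit PHKB was at 25.1 ± 2.79 FPKM at 24 h and 26.1 ± 1.11 FPKM at 36 h (log2 change 0.057 ± 0.092 (SE), adjusted p = 0.63). PHKG1, the catalytic subunit of muscle, was at 13.9, 11.8 and 7.74 FPKM at 24 h and 16.02, 15.7 and 14.6 FPKM at 36 h, wholly higher at 36 h but not past the threshold (log2 change 0.47 ± 0.19 (SE), adjusted p = 0.0745). It passed with the replicate block (limma adjusted p = 0.0408), after median-ratio scaling (0.63, adjusted p = 0.0389), after quantile normalization (limma adjusted p = 0.0499) and without NC24h replicate 4 (limma adjusted p = 0.0226), its adjusted p going from 0.0226 to 0.169 over its 14 alternatives.

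**Figure D3:**
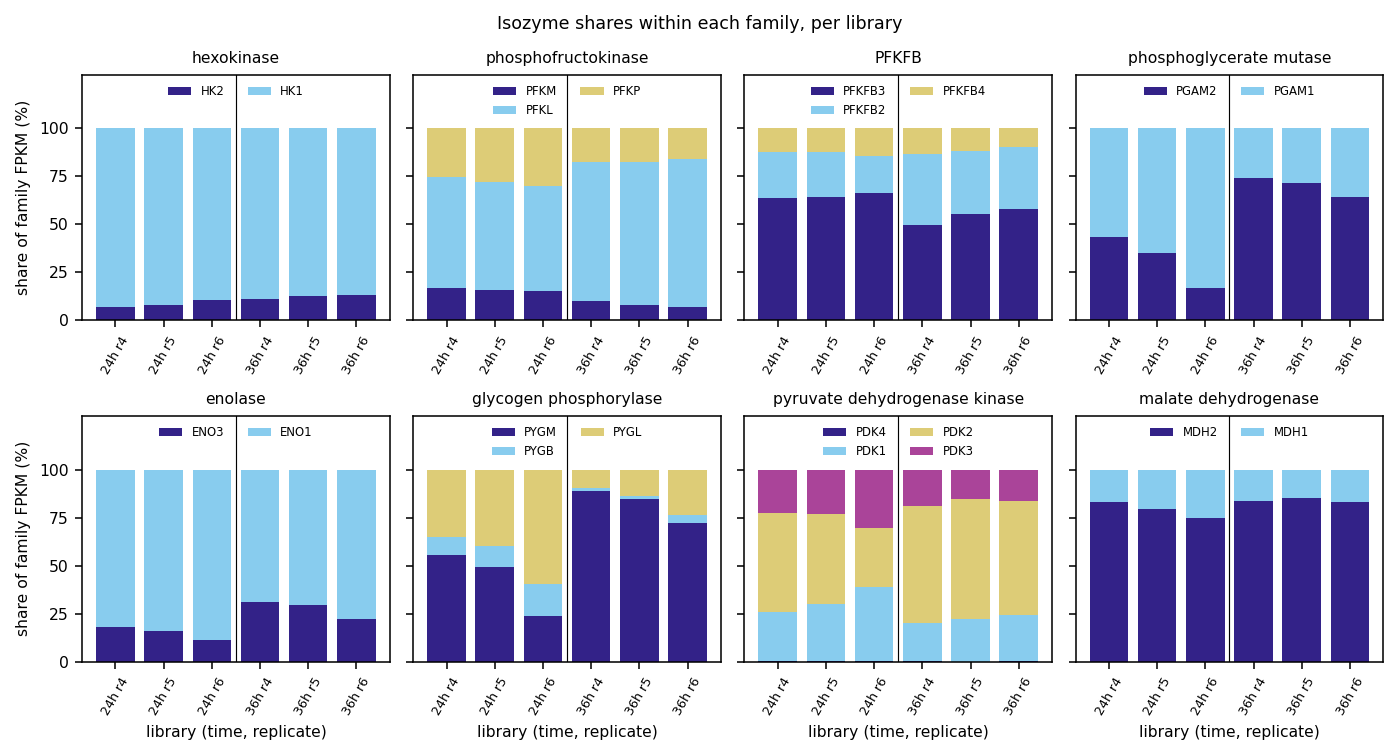
Share of each isozyme in the summed FPKM of the listed genes of its family, in percent, for each library (r4 to r6 are replicates 4 to 6; the line parts 24 h from 36 h). PGAM2 goes from 17.1 to 43.2% at 24 h to 64.3 to 74.3% at 36 h, PYGM from 23.5 to 55.3% to 72.4 to 88.9%, and PFKM is lower in each library at 36 h than in any at 24 h.

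A share within a family does not change with the scaling of the library, and it was computed for the 8 families with at least 2 genes and the lead gene measured. Only genes of the enzyme list were summed, so other hexokinase and enolase genes with a row were left out of the shares. Of the mutase FPKM, PGAM2 made up 43.2, 34.9 and 17.1% at 24 h and 74.3, 71.7 and 64.3% at 36 h. The sum of both mutase genes was 1026 ± 9.02 at 24 h and 1518 ± 68.5 at 36 h (FPKM), higher in every library at 36 h, and PGAM1 made up most of it at 24 h and PGAM2 at 36 h. Of the summed ENO1 and ENO3 FPKM, ENO3 made up 17.9, 16.04 and 11.08% at 24 h and 31.1, 29.4 and 22.4% at 36 h. That sum was 1387 ± 36.6 at 24 h and 1383 ± 57 at 36 h (FPKM) and overlapped between the times. Of the phosphorylase FPKM, PYGM made up 55.3, 49.4 and 23.5% at 24 h and 88.9, 84.7 and 72.4% at 36 h, and the sum went from 83.7 ± 15.2 to 172 ± 62.6 FPKM. In these 3 families the muscle form took a larger share in every library at 36 h than in any at 24 h. Phosphofructokinase went the other way, with PFKM at 16.7, 15.98 and 15.4% at 24 h and 9.85, 8.16 and 6.95% at 36 h and PFKL, the liver form, at 57.9, 56.0 and 54.5% at 24 h and 72.9, 74.3 and 77.3% at 36 h. PFKFB3 went from 64.7 ± 1.30 to 54.5 ± 4.29% of its family as PFKFB2 went from 22.4 ± 2.64 to 34.0 ± 2.63%. Of the summed HK1 and HK2 FPKM, HK2 made up 8.67 ± 1.99% at 24 h and 12.4 ± 0.944% at 36 h. Of malate dehydrogenase the mitochondrial MDH2 made up 79.0 ± 4.19% at 24 h and 83.8 ± 1.02% at 36 h. Among the pyruvate dehydrogenase kinases PDK2 made up 43.2 ± 10.9% at 24 h and 60.8 ± 1.37% at 36 h, while PDK4, taken as the lead gene, stayed under 1% throughout. The share of the lead gene did not overlap between the times in any of the 8 families. For MDH2 the gap was very narrow, with NC24h replicate 4 at 82.9% and NC36h replicate 6 at 83.01%. Levels of single genes often did not overlap either, with 21.0% of all genes wholly higher at 36 h and 42.6% wholly lower. The PDK4 share rests on 3, 2 and 3 fragments at 36 h. In each family the two-sided exact permutation p was 0.1, which is the smallest that 3 against 3 libraries allow and is also 0.1 after adjustment over the 8. Without NC24h replicate 6 the difference in share was 31.0 percentage points for PGAM2 in place of 38.4, and 29.6 for PYGM in place of 39.3. It was 2.65 for MDH2 in place of 4.86, and 11.4 for PDK2 in place of 17.6.

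The pyruvate dehydrogenase complex lets pyruvate into the TCA cycle as acetyl groups. Of the 8 tested genes of this step, 1 rose (12.5%, against 16.5% of all genes), 2 fell (25%, against 34.4%) and 5 did not pass, and the median difference was 0.006 relative to all genes. The summed level was 528 ± 3.32 FPKM at 24 h and 469 ± 18.1 FPKM at 36 h. PDHA1, the catalytic subunit that is switched off by phosphorylation, was at 282, 288 and 285 FPKM at 24 h and 223, 215 and 221 FPKM at 36 h. The 3 libraries of each time lay close together and apart from the other time (log2 change -0.37 ± 0.054 (SE), adjusted p = 0.00242). DLD, the component shared with other dehydrogenases, was at 63.1 ± 1.80 FPKM at 24 h and 51.7 ± 4.14 FPKM at 36 h (log2 change -0.28 ± 0.073 (SE), adjusted p = 0.0171). Its call was lost after median-ratio scaling (-0.11, adjusted p = 0.261), without NC24h replicate 5 (limma adjusted p = 0.0637) and without NC36h replicate 5 (limma adjusted p = 0.0699) or 6 (limma adjusted p = 0.0518), its adjusted p going from 0.0126 to 0.261 over its 14 alternatives. PDHB and DLAT, the other subunits, did not pass, with differences of 0.14 ± 0.072 and 0.093 ± 0.066 on the log2 scale (adjusted p = 0.149 and 0.274), and both passed as higher after median-ratio scaling. Their differences there were 0.31, adjusted p = 0.0131, and 0.26, adjusted p = 0.0237, in that order.

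The kinases that switch the complex off differed. PDK2 was at 30.5, 29.0 and 22.0 FPKM at 24 h and 45.3, 46.9 and 41.0 FPKM at 36 h, all higher at 36 h (log2 change 0.70 ± 0.13 (SE), adjusted p = 0.005). PDK1 was at 14.9, 18.3 and 27.3 FPKM at 24 h and 15.1, 16.9 and 16.6 FPKM at 36 h, with NC24h replicate 6 well above the rest (log2 change -0.26 ± 0.20 (SE), adjusted p = 0.31). PDK3 was highest in the same library, with 13.3, 14.2 and 21.6 FPKM at 24 h and 14.3, 11.5 and 11.2 FPKM at 36 h (log2 change -0.36 ± 0.19 (SE), adjusted p = 0.149). PDK4, the kinase induced by fasting, was under the FPKM minimum, with 12, 16 and 16 fragments at 24 h and 3, 2 and 3 fragments at 36 h, or means of 0.249 and 0.0377 FPKM. With no filter its difference was -0.27 ± 0.040 on the log2(FPKM + 1) scale, adjusted p = 0.00538. PDP1, the phosphatase that switches the complex back on, was at 23.1 ± 2.69 FPKM at 24 h and 22.4 ± 3.41 FPKM at 36 h (log2 change -0.045 ± 0.13 (SE), adjusted p = 0.794).

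Within the TCA cycle, 4 of the 8 tested enzymes rose (50%, against 16.5% of all genes) and the other 4 did not pass. Their median difference was 0.23 on the log2 scale, 0.39 above the median of all genes, and the summed level was 677 ± 35.1 FPKM at 24 h and 821 ± 39.3 FPKM at 36 h. IDH2, the mitochondrial isocitrate dehydrogenase that makes NADPH (ENSSSCG00000001852, chromosome 7, 55654298 to 55675571), was at 43.0, 41.1 and 37.8 FPKM at 24 h and 93.6, 80.7 and 70.9 FPKM at 36 h. The 36 h libraries lay well above the 24 h ones, by 2.01-fold (log2 change 0.98 ± 0.11 (SE), adjusted p = 0.00123). IDH3B, a subunit of the NAD-linked enzyme of the cycle itself, was at low level, 5.34 ± 0.340 FPKM at 24 h and 7.91 ± 0.228 FPKM at 36 h, and rose (log2 change 0.49 ± 0.079 (SE), adjusted p = 0.00327). OGDH, which carries the next oxidation, was at 157, 160.2 and 157 FPKM at 24 h and 199, 202 and 198 FPKM at 36 h, the tightest groups of the cycle (log2 change 0.34 ± 0.052 (SE), adjusted p = 0.00297). MDH2, the mitochondrial malate dehydrogenase, was at 139.6, 136 and 113 FPKM at 24 h and 186, 176 and 162 FPKM at 36 h, again with no overlap (log2 change 0.43 ± 0.099 (SE), adjusted p = 0.0113).

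The cytosolic malate dehydrogenase MDH1 was at 28.8, 35.0 and 38.6 FPKM at 24 h and 36.7, 31.1 and 33.1 FPKM at 36 h, overlapping between the times (log2 change -0.013 ± 0.12 (SE), adjusted p = 0.934). SUCLG1, a subunit of the enzyme that makes GTP or ATP in the cycle, was at 146 ± 4.40 FPKM at 24 h and 159 ± 5.48 FPKM at 36 h, with no overlap but not past the threshold (log2 change 0.12 ± 0.058 (SE), adjusted p = 0.12), and passed after median-ratio scaling (0.30, adjusted p = 0.0106), its adjusted p running from 0.0106 to 0.317 over its 14 alternatives. Its ATP-linked partner SUCLA2 was at 29.7 ± 2.08 FPKM at 24 h and 27.3 ± 1.82 FPKM at 36 h (log2 change -0.12 ± 0.080 (SE), adjusted p = 0.26). FH, fumarase, was at 133 ± 17.9 FPKM at 24 h and 136 ± 8.77 FPKM at 36 h (log2 change 0.043 ± 0.11 (SE), adjusted p = 0.757).

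Creatine kinase and the adenine nucleotide enzymes keep ATP steady during contraction. CKB, the brain-type cytosolic creatine kinase, was at 33.0, 28.1 and 31.6 FPKM at 24 h and 59.4, 54.7 and 41.5 FPKM at 36 h. It rose 1.68-fold with no overlap (log2 change 0.72 ± 0.14 (SE), adjusted p = 0.00624). CKMT2, the mitochondrial form of muscle, was under the FPKM minimum, with 5, 3 and 2 fragments at 24 h and 35, 32 and 19 fragments at 36 h, or means of 0.142 and 0.994 FPKM. With no filter its difference was 0.80 ± 0.10 on the log2(FPKM + 1) scale, adjusted p = 0.0033. AMPD1, the AMP deaminase of muscle (ENSSSCG00000006754, chromosome 4, 105868834 to 105892171), had the largest difference of the members (log2 change 2.37 ± 0.36 (SE), adjusted p = 0.00275). AMPD1 passed the FPKM minimum only through its 36 h level. Its levels were 1.06, 0.835 and 0.312 FPKM at 24 h and 12.6, 8.71 and 4.18 FPKM at 36 h, resting on 42, 32 and 12 fragments at 24 h and 613, 446 and 176 fragments at 36 h. Replicate 6 was the lowest at both times, and no 24 h library came near a 36 h one. AK1, the adenylate kinase of muscle, was at 3.27, 4.59 and 7.64 FPKM at 24 h and 6.16, 3.61 and 2.47 FPKM at 36 h, overlapping between the times (log2 change -0.28 ± 0.34 (SE), adjusted p = 0.506). TKT, transketolase of the pentose phosphate pathway, was the single member of that route and fell, with 14.6, 15.6 and 19.1 FPKM at 24 h and 11.07, 11.3 and 12.4 FPKM at 36 h (log2 change -0.46 ± 0.11 (SE), adjusted p = 0.0125).

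**Figure D4:**
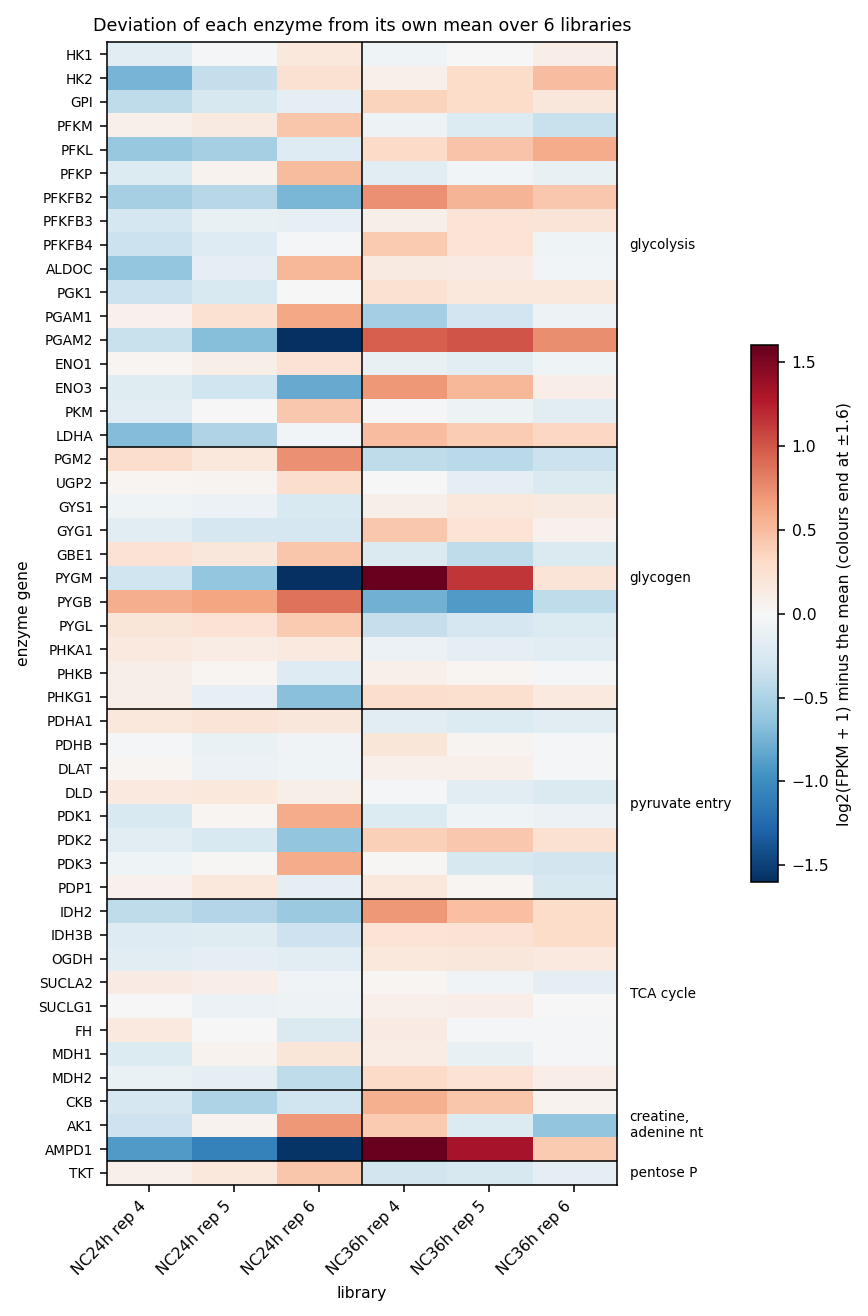
Deviation of log2(FPKM + 1) from the mean of the 6 libraries for each of the 48 tested enzymes, red above and blue below, by pathway (colours end at 1.6 in either direction). PGAM2, PYGM and AMPD1 show the widest spread, with NC24h replicate 6 the bluest library of each.

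Replicate 6 was the lowest library for 11 of the 18 enzymes that rose at 24 h and for 14 of the 18 at 36 h, and for 9 of them at both times. It was the highest at 24 h for 4 of the 18, among them LDHA, and among the 19 enzymes that did not pass it was the lowest at 36 h for 14. How often replicate 6 was the lowest over all genes was not counted. Of 10 skeletal muscle markers listed, 7 had a row, and 5 of these 7 rose while MYOD1 and MYF5 did not pass. Over all genes tested, 16.5% rose and 34.4% fell. With the replicate block MYF5 was called lower (limma adjusted p = 0.00678, and from 0.00678 to 0.262 over its 14 alternatives). The summed level of the 7 was between 2782 and 5411 FPKM at 24 h and between 11441 and 13254 FPKM at 36 h. MYH3, embryonic myosin heavy chain, was at 677, 517 and 151 FPKM at 24 h and 2499, 2350.4 and 2052 FPKM at 36 h. TNNC2, fast troponin C, was at 12.0, 10.1 and 4.54 FPKM at 24 h and 93.6, 62.2 and 25.4 FPKM at 36 h, with replicate 6 lowest at both times as for AMPD1 and PYGM. What part the makeup of the cultures has in the enzyme differences was not tested. Of 9 fibroblast markers, 6 had a row and their sum was 930 to 1001 FPKM at 24 h and 826 to 1032 FPKM at 36 h, and of the 5 tested 2 rose (COL3A1 and POSTN) and 3 fell (COL1A2, DCN and LUM). COL1A2, at 693 ± 72.0 FPKM at 24 h and 450.5 ± 38.2 FPKM at 36 h, and COL3A1, at 241 ± 36.5 FPKM at 24 h and 443 ± 74.4 FPKM at 36 h, made up most of that sum. Endothelial KDR and leukocyte PTPRC were listed at 0 in every library, as was PGR, and since TPI1 was too, no absence is read from these zeros. The summed levels of the endothelial, leukocyte and adipocyte markers with a row stayed under 6 FPKM in each library. Of the smooth muscle and pericyte markers MCAM, which made up nearly all of the sum, was at 158 ± 15.3 FPKM at 24 h and 77.8 ± 9.62 FPKM at 36 h and fell, and PDGFRB, at 1.62 ± 0.294 FPKM at 24 h and 3.87 ± 0.159 FPKM at 36 h, rose.

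**Figure D5:**
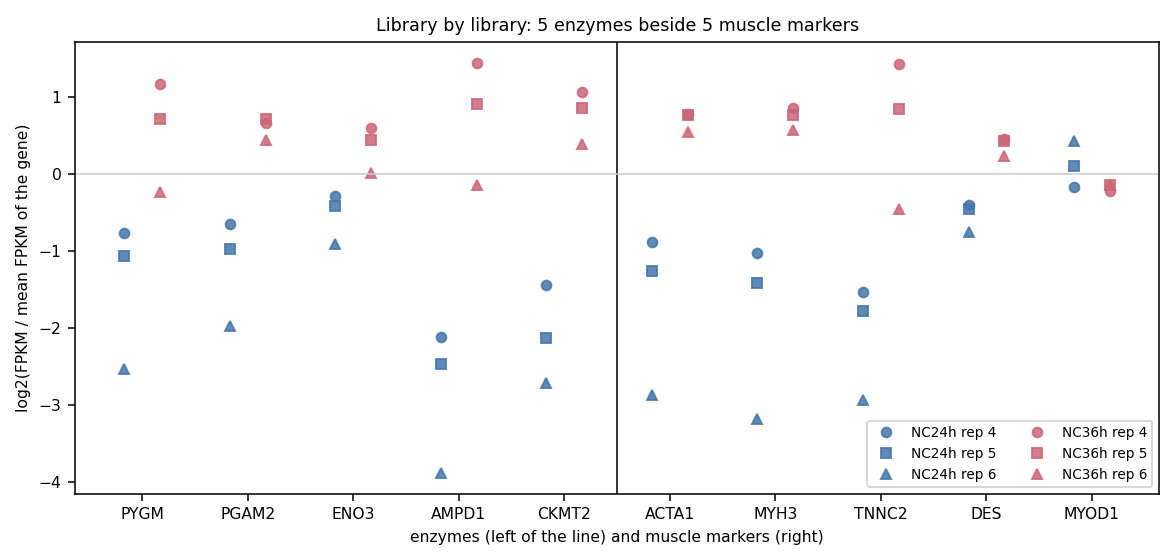
Log2 of the FPKM over the gene's own mean in each library for 5 enzymes of muscle and 5 muscle markers, picked after their values were seen; circles, squares and triangles are replicates 4, 5 and 6, blue at 24 h and red at 36 h. The triangle of NC24h is the lowest point of PYGM, PGAM2, ENO3, AMPD1 and CKMT2 and of ACTA1, MYH3, TNNC2 and DES, and not of MYOD1.

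A further 84 genes of the same pathways, transport and regulation were listed beside the members, of which 60 had a row and 49 were tested. Of these, 12 rose and 17 fell (24.5% and 34.7%), so the rises were more frequent than the 16.5% of all genes and the falls close to the 34.4%, with a median difference of -0.097. In glycolysis, 1 of 5 rose (20%, against 16.5% of all genes) and 2 fell (40%, against 34.4%). The largest changes were those of GALM, which interconverts the ring forms of sugar (log2 change -0.80 ± 0.11, adjusted p = 0.00188), and ADPGK, an ADP-dependent glucokinase (log2 change -0.54 ± 0.13, adjusted p = 0.0146). The call of ADPGK was lost without NC36h replicate 5 (limma adjusted p = 0.0566, the highest of its 14 alternatives). GAPDH was at 2358, 2489 and 2645 FPKM at 24 h and 2649.9, 2772 and 2747 FPKM at 36 h, the highest of all the enzymes given here (log2 change 0.13 ± 0.086, adjusted p = 0.253). After median-ratio scaling GAPDH passed as higher (0.30, adjusted p = 0.0219), and its adjusted p ran from 0.0219 to 0.532 over its 14 alternatives.

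Of the other glycogen genes 5 of 11 rose (45.5%, against 16.5% of all genes) and 2 fell (18.2%, against 34.4%). PGM3, the mutase of the hexosamine route, fell (log2 change -0.72 ± 0.078, adjusted p = 0.00118). Among pyruvate and transport genes 2 of 5 rose (40%, against 16.5% of all genes) and 2 fell (40%, against 34.4%). SLC16A3, the monocarboxylate transporter that exports lactate, was at 16.05, 19.7 and 29.6 FPKM at 24 h and 80.2, 80.0 and 76.6 FPKM at 36 h, a 3.63-fold rise (log2 change 1.85 ± 0.20, adjusted p = 0.00115). PC, pyruvate carboxylase, fell (log2 change -0.58 ± 0.14, adjusted p = 0.0156).

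Of the other genes around the TCA cycle 2 of 14 were higher (14.3%, against 16.5% of all genes) and 7 lower (50%, against 34.4%), and their median difference was -0.20 on the log2 scale, -0.048 relative to all genes. ME2, the mitochondrial malic enzyme, had the largest fall (log2 change -1.18 ± 0.12, adjusted p = 0.000951), and IDH1, the cytosolic relative of IDH2, followed (log2 change -0.94 ± 0.18, adjusted p = 0.00601). After median-ratio scaling 3 of the 14 were higher and 4 lower, where 23.9% and 22.3% of all genes were. IDH1 was at 60.6, 68.6 and 101 FPKM at 24 h and 35.9, 38.7 and 41.4 FPKM at 36 h, so that it fell where IDH2 rose. Of the other creatine and nucleotide genes 1 of 9 rose and 4 of 9 fell, where 16.5% of all genes rose and 34.4% fell. AMPD3, the AMP deaminase of red blood cells and other tissues, was at 33.1, 40.6 and 42.0 FPKM at 24 h and 8.17, 9.43 and 14.8 FPKM at 36 h, lower in every library at 36 h (log2 change -1.78 ± 0.21, adjusted p = 0.00135), against the rise of AMPD1. ADSS2, an adenylosuccinate synthase, fell too (log2 change -0.73 ± 0.12, adjusted p = 0.00313). In the pentose phosphate pathway TALDO1, transaldolase, rose (log2 change 0.26 ± 0.060, adjusted p = 0.012), and the other 4 tested genes did not pass, with PGD next in size (log2 change -0.20 ± 0.086, adjusted p = 0.0922). The rise of TALDO1 was lost without NC24h replicate 5 (limma adjusted p = 0.0525, the highest of its 14 alternatives), and PGD was called lower with the replicate block (limma adjusted p = 0.0419, and from 0.0419 to 0.801 over its 14 alternatives).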

How the data were processed

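Total RNA from PSCs was sequenced as paired-end reads (6 libraries). Per the study's methods, reads were mapped to Sscrofa11.1 with HISAT2, assembled with StringTie and counted with HTSeq; the submitters' processing notes name TopHat2, Cufflinks and HTSeq. The authors deposited FPKM values, 1 column per library, and no column was left unused. Strandedness and the treatment of shared reads are not given in the sources used here.

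A symbol was found for 11804 of the 25322 Ensembl identifiers. Coordinates are those of RefSeq genes on Sscrofa11.1, matched by symbol. The identifiers in the table end at number 31070, and 5 of the 6 enzymes without a row have identifiers from 32498 up in the name table. No sequences are shown.

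The two-sided limma test (version 3.58.1, R 4.3.3, eBayes with a trend) was run on log2(FPKM + 1) of the 14060 genes whose mean reached 1 FPKM, with Benjamini-Hochberg adjustment over all of them and a threshold of 0.05. The test and the fragment recovery were tested on simulated data. Whole fragments were recovered from the FPKM steps for 19543 of 19543 rows above 0 in at least 3 libraries, within 0.004 of a whole number, and served for the depth and for voom, which called 7248 genes against 7156. Isozyme shares were compared by exact permutation.

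The members and lists were chosen with earlier results of these data known. Every member is named, with values in each library for the lead isozymes and their relatives and for the 6 largest rises and falls; other genes are named where among the 2 largest changes of their list. A gene that falls under this rule is not reported here. The exceptions are GAPDH and the muscle and fibroblast markers, which were picked after their values were seen. The alternatives were another pseudocount (0.1), 2 other filters, 2 other scalings, no trend, the replicate block, voom and leaving out each library. The labels give no batch. The libraries with H19 siRNA were not analysed here.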

Additional observations from a re-analysis of the deposited data

How the results depend on the processing

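The deposited FPKM and the median-ratio scaling split the calls over all genes differently, with 32.4% and 51.8% of them higher, so small differences depend on the scaling. After median-ratio scaling the members that fell went from 11 to 6, and leaving out 1 library gave 6 to 11. The median differences became 0.54 for glycolysis, -0.075 for glycogen, 0.015 for pyruvate entry, which turned direction, and 0.40 for the TCA cycle. Quantile normalization gave -0.093 for glycogen and -0.047 for pyruvate entry, and no filter gave -0.26 for pyruvate entry with PDK4 included. No called member changed direction in any of the 14 alternatives. Members not called that did were PKM (0.002), PDP1 (0.12), SUCLA2 (0.053) and MDH1 (0.16) after median-ratio scaling, and HK1 (-0.030), PDP1 (0.056), FH (-0.013) and MDH1 (0.055) after quantile normalization. With 1 library left out the differences were -0.067 to 0.11 for HK1, -0.11 to 0.47 for ALDOC, -0.033 to 0.12 for PHKB, -0.14 to 0.073 for PDP1, -0.061 to 0.13 for FH and -0.13 to 0.078 for MDH1. The pseudocount, the trend and voom changed no member's call. The replicate numbers were not taken to pair the libraries, since the deviations of same-numbered libraries correlated at 0.15, -0.02 and 0.18 over all genes, and not every library correlated best with its own number. With the replicate number as a block, 7034 genes were called in place of 7156, with 20 members higher and 10 lower, HK2 and PHKG1 gained and ENO1 lost. Over the members the same numbers correlated at 0.38, 0.49 and 0.50, and replicates 4 and 5 across numbers at 0.43 and 0.40. The 8 isozyme shares kept their direction when any 1 library was left out. The cause of these changes was not tested. Depth limits PDK4 and CKMT2 most.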

Other observations

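Among 12 tested hypoxia-inducible genes outside the enzyme list, 3 rose (25%, against 16.5% of all genes) and 2 fell (16.7%, against 34.4%), with a median difference of -0.068 on the log2 scale, where that of all genes was -0.16. EGLN3, a prolyl hydroxylase, was at 2.38, 2.52 and 2.41 FPKM at 24 h and 8.97, 8.04 and 6.80 FPKM at 36 h (log2 change 1.37 ± 0.11, adjusted p = 0.000692). NDRG1, a stress-responsive gene, was at 27.5, 37.1 and 65.9 FPKM at 24 h and 13.9, 15.1 and 18.4 FPKM at 36 h, in the opposite direction (log2 change -1.32 ± 0.30, adjusted p = 0.0105).

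Of the 4 endometrial epithelial markers, 3 had a row. PGR was listed at 0 and EPCAM at or near 0 in every library, and CDH1, E-cadherin, was at 0.417, 0.430 and 0.107 FPKM at 24 h and 4.36, 4.18 and 2.35 FPKM at 36 h (log2 change 1.79 ± 0.22, adjusted p = 0.00155). CDH1 passed the filter only through its 36 h level and had 18 fragments over the 3 libraries at 24 h.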
